A study of Caenorhabditis elegans with 2 samples.

Results

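The large ribosomal subunit protein genes of Caenorhabditis elegans were taken as all nuclear protein-coding genes whose Ensembl symbol starts with rpl-, which gave 47 of 19973 coding genes in WBcel235, the assembly also called ce11. Binding was read from ChIP-seq of LIN-35 in whole young adult worms of mixed sex, profiled in 2 biological replicates of 1 group. Every animal was of strain YL521, which combines the unc-119(ed3) mutation with vrIs117, an integrated transgene: pie-1 promoter sequence drives LIN-35 tagged with GFP and FLAG, the transcript ends in sequence of puf-5, and unc-119 is rescued. Both regulatory sequences are of germline genes, the antibody is listed against LIN-35 itself, and binding of tagged and endogenous protein, or in germline and soma, cannot be told apart here. Bound genes were those whose annotated 5' end had a summit of the authors' thresholded peak list at most 500 bp away on either side, and the signal is the value the authors deposited for that peak, whose scale is not stated. With 2 replicates of 1 group no test over samples is possible, so all values are descriptions.

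Large subunit proteins assemble in the nucleolus on ribosomal RNA, leave the nucleus in precursor particles and form the particle that joins amino acids and lets the new chain out through its exit tunnel. Their genes are transcribed at high and matched levels in growing cells. LIN-35 is the worm retinoblastoma-family pocket protein, and in the DREAM complex it joins E2F and DP proteins to the MuvB core, whose LIN-54 subunit contacts CHR elements; DREAM is best known for holding cell cycle genes down. The members' names were checked against the products that RefSeq gives for the same WormBase gene IDs. For 45 of the 47 the product is a large subunit ribosomal protein. The exceptions were rpl-24.2, given as a putative ribosome biogenesis protein RLP24, an assembly factor related to eL24, and rpl-42, given as a NAM-associated domain-containing protein, so the symbol of rpl-42 was not borne out by its product.

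The sequence around the summits is shown for 11 bound members, because short words recurred there. Each run is read 5′ to 3′ on the strand of the gene from the WBcel235 genome, covers up to 40 bases on each side of the summit and is cut where an annotated coding-gene exon begins. Capitals mark 6 words of 7 letters in either orientation: CGAGTGT and GGTCTCG, the A-rich CCTAAAA and AAACGAG, and lastly TACCGTA and TACTCAG. The first 9 windows hold at least 1 of them within the bases shown, and those of rpl-35 and rpl-12, among the 5 members of highest signal, hold none. The 11 members were chosen after their values were seen, so these counts give no share of the bound members. Of windows cut the same way but not shown, those of rpl-7A, rpl-5, rpl-22, rpl-36, rpl-36.A, rpl-34 and rpl-10 also hold none. Those of rpl-23, rpl-38, rpl-28, rpl-21, rpl-18 and rpl-9 hold at least 1. The rpl-3 window is chrIII:3867538-3867618 on the plus strand, that of rpl-20 is chrIV:4750044-4750124 on the minus strand, and that of rpl-15 is chrIV:654903-654983 on the minus strand. The rpl-11.2 window is chrX:2242951-2243031 on the minus strand, that of rpl-6 is chrIII:7208044-7208124 on the plus strand, and that of rpl-33 is chrII:7105156-7105236 on the plus strand. The rpl-39 window is chrV:7776287-7776367 on the minus strand, that of rpl-32 is chrII:9057390-9057470 on the minus strand, and that of rpl-29 is chrIV:13881887-13881967 on the plus strand. The rpl-35 window is chrIII:7854636-7854716 on the plus strand, and that of rpl-12 is chrIV:13240652-13240715 on the minus strand.

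rpl-3: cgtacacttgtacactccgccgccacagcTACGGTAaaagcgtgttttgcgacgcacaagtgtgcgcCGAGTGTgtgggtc
rpl-20: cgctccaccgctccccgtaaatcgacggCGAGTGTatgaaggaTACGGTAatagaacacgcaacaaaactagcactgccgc
rpl-15: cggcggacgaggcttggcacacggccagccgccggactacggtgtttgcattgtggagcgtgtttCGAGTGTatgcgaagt
rpl-11.2: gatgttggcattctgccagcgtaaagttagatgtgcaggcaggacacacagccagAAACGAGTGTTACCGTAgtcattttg
rpl-6: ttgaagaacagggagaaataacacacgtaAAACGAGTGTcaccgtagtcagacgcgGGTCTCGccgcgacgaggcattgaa
rpl-33: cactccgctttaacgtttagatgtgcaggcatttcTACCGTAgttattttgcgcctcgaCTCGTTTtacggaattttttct
rpl-39: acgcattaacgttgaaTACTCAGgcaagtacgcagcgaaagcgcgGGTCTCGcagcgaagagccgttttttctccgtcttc
rpl-32: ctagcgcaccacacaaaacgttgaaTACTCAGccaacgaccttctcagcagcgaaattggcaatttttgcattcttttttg
rpl-29: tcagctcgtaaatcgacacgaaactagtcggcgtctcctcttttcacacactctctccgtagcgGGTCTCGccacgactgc
rpl-35: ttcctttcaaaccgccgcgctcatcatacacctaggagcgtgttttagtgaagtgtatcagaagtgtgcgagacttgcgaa
rpl-12: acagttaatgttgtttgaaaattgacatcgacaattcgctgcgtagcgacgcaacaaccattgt

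The rpl-11.2 and rpl-6 windows share the run AAACGAGTGT, in which AAACGAG overlaps with CGAGTGT, and in rpl-11.2 the word TACCGTA follows directly. In rpl-39 and rpl-32 the word TACTCAG stands in the same stretch, gttgaaTACTCAG. In rpl-39, rpl-29 and rpl-6 the word GGTCTCG lies within the bases shown.

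Of the 47 members, 36 were bound, a share of 76.6% (95% Wilson interval 62.8 to 86.4%), beside 8.61% of all 19973 coding genes. The interval covers counting of genes only. The members were distributed over all 6 chromosomes. On chromosome IV 7 of 7 were bound, on I 12 of 15, on III 7 of 9, on II 6 of 9, on V 3 of 5 and on X 1 of 2. The share of all coding genes bound on these chromosomes ran from 4.06% on X to 14.5% on III. When the distance was widened to 1000 bp, 41 members were bound, beside 10.9% of coding genes. Within 200 bp only 5 members were bound, beside 4.49% of coding genes, so most of the members' summits lay between 200 and 500 bp of the 5' end. Measured from the start codon in place of the 5' end, 36 members were bound, beside 8.25% of coding genes.

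The related gene lists showed the same call at different frequencies. Of the 31 rps- genes, which encode small subunit proteins, 26 were bound (83.9%, interval 67.4 to 92.9%). The summits of rps-10, rps-14 and rps-30 are also those of rpl-24.1, rpl-36 and rpl-39, so these peaks count in both lists. Of the 41 mrpl- genes, which encode proteins of the mitochondrial large subunit, 13 were bound (31.7%, interval 19.6 to 47.0%). The stalk and ubiquitin fusion genes gave 2 of 5. These were ubq-2, which encodes ubiquitin fused to a large subunit protein, with a signal of 100.1 and its summit 453 bp upstream, and ubl-1, with 109 and 221 bp. The stalk genes rla-0, rla-1 and rla-2 were not bound. Of 7 large subunit assembly genes 4 were bound: eif-6, the anti-association factor, with a signal of 117, lpd-6 with 149.9, pro-1 with 124, and lpd-7, the worm Pescadillo, with 52.7. The assembly genes nst-1, pro-2 and pro-3 were not bound. Another 2 genes carry an rpl- name in RefSeq only and were not counted as members. W01D2.1, named rpl-37.1 there, was bound with a signal of 85.7 and its summit 412 bp upstream, and Y37E3.8, named rpl-27A, was bound with 92.2 and 317 bp.

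Signals of the 36 bound members covered a wide range. The median was 122 (quartiles 83.6 and 211), beside 85.3 for the 1683 other bound coding genes (quartiles 57.9 and 139). The median rank in the thresholded list of 2712 peaks was 574 for members and 983 for the others. Among members 30 of 36 (83.3%) had a summit among the 1356 strongest peaks of the list, beside 63.8% of the others and 80.8% of the bound rps- genes. In the first 100 ranks stood the summits of 7 members (19.4% of the bound), beside 4.22% of the other bound genes and 4 of the 26 bound rps- genes.

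The strongest summit of the nuclear genome belonged to rpl-3, which encodes uL3, a protein that reaches towards the peptidyl transferase centre. Its peak, chrIII:3867306-3867778, had a signal of 2773 and rank 4 in the thresholded list, and the summit lay 276 bp upstream. In the replicate lists it had signals of 1055 and 1720 in replicates 1 and 2, and rank 4 in each. The next member, rpl-35, encodes uL29, which sits at the mouth of the exit tunnel. Its peak had a signal of 1526 and rank 7, with the summit 458 bp upstream, and signals of 596 and 930.2 at ranks 9 and 8 in replicates 1 and 2. A weaker thresholded summit with a signal of 49.7 lay 363 bp downstream of its 5' end. Only rpl-35 among the bound members had more than 1 summit. For rpl-20, which encodes eL20, the signal was 1120 at rank 10, with 489.9 and 634 at ranks 11 and 12 in replicates 1 and 2. For rpl-15, which encodes eL15, it was 816 at rank 16, with 288 and 536 at ranks 27 and 17. These 4 members thus stood among the first 30 peaks of each replicate list as well.

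The summit of rpl-12, with a signal of 731 at rank 23, lay nearest to a member's 5' end, 24 bp upstream, and had signals of 314 and 414 in replicates 1 and 2. Its product uL11 forms the base of the stalk that recruits translation factors. The next nearest summits belonged to rpl-7A, encoding eL8, with a signal of 403 (158 and 236 in replicates 1 and 2), rank 86 and 82 bp, and to rpl-24.2, with 481 (217 and 268), rank 62 and 139 bp, in an intron of the overlapping gene C03D6.1. These 3 members were all among the first 100 ranks. Below them came rpl-41.2 with a signal of 239, rpl-5 with 212, rpl-24.1 with 210, rpl-22 with 204 and rpl-11.2 with 175. The product of rpl-5, uL18, and that of rpl-11.2, uL5, carry the 5S ribosomal RNA into the subunit. The products of rpl-41.2 and rpl-24.1 are eL41, the shortest ribosomal protein, and eL24. In the middle of the range rpl-38, encoding eL38, had a signal of 134, rpl-14, encoding eL14, one of 126, and rpl-13, encoding eL13, one of 118, with summits 367, 278 and 275 bp upstream. Below the lower quartile stood rpl-18, encoding eL18, with 58.3 at 167 bp. The lowest signals among bound members were 48.0 at rpl-10, which encodes uL16, 50.5 at rpl-19, 52.7 at rpl-9 and 53.3 at rpl-7, against a lowest value of 41.9 in the whole list.

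Members were also read by the place of their product in the subunit, for examples chosen after their values were seen. Around the peptidyl transferase centre, rpl-3 was bound with the signal above and rpl-10 with 48.0, while rpl-2, whose product uL2 is at the core of the centre, was not bound. Along the exit tunnel, rpl-4 (uL4) had a signal of 90.2, rpl-17 (uL22) one of 88.4 and rpl-39 (eL39) one of 72.0. At the tunnel's mouth rpl-35 had 1526, rpl-31 (eL31) 129.5, rpl-25.2 (uL23) 112 and rpl-19 (eL19) 50.5, while rpl-25.1, also for uL23, and rpl-26 (uL24) were not bound. In the replicates the signals of rpl-4 were 29.6 and 51.5, those of rpl-17 28.0 and 59.7, and those of rpl-39 26.4 and 51.1 in replicates 1 and 2. On the stalks, rpl-12 had 731, and rpl-1, which encodes uL1 of the mobile L1 stalk, had 86.9. The gene rla-0, which encodes uL10 of the same stalk as rpl-12, was not bound, with a pooled signal of 33.4. For the face that meets the small subunit only bound examples were named, rpl-23 (uL14) with 149 and rpl-24.1 with 210. They do not show what share of the members on that face was bound.

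**Figure D1:**
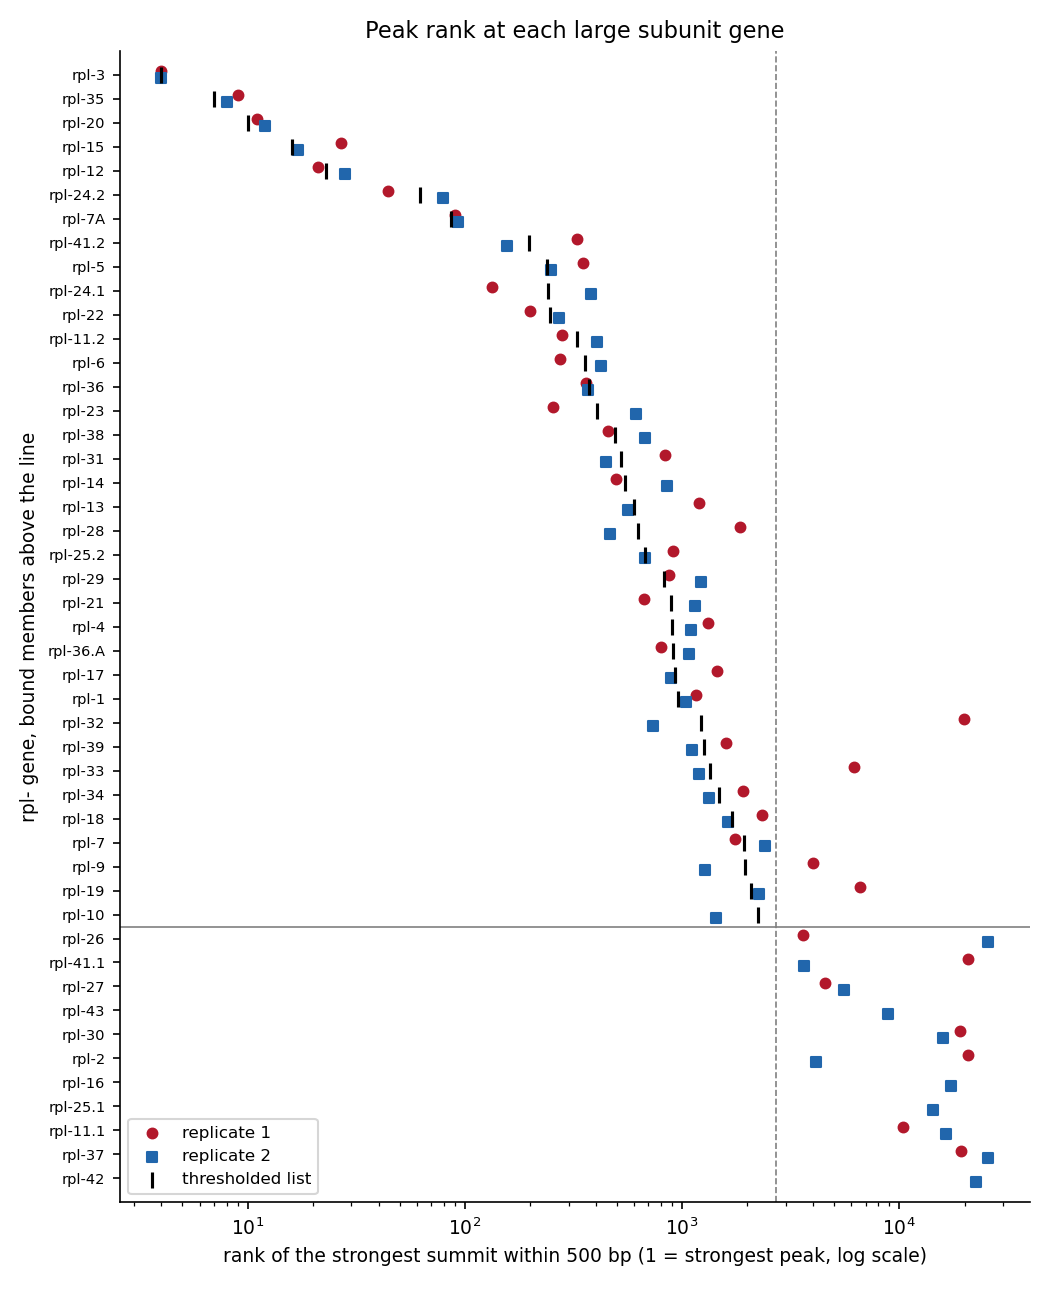
Rank of the strongest summit within 500 bp of each of the 47 genes on a log axis, in replicate 1 (circles), replicate 2 (squares) and the thresholded list (bars); the dashed line marks rank 2712, the length of the thresholded list. The 7 members of highest signal had ranks under 100 in all lists, and the unbound members, under the horizontal line, all lay right of the dashed line where they had a summit.

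The replicates gave similar orders for the bound members. A summit within 500 bp was present in both relaxed lists for 35 of the 36, and across these 35 genes the signals of replicates 1 and 2 had a Spearman's rho of 0.867, beside 0.655 across 1620 other bound genes; genes share the libraries, so this is a description only. Summits of the same gene lay a median of 17 bp apart in the 2 replicates (quartiles 8.5 and 34 bp), beside 25 bp for the other bound genes. Replicate 1 gave the better rank for 16 members and replicate 2 for 18, and rpl-3 was level.

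When each replicate list was cut to its 2712 strongest peaks, replicate 1 gave 31 bound members, beside 7.75% of coding genes, and replicate 2 gave 36, beside 8.47%. Both lists agreed on 31 members, beside 5.65% of coding genes. The 5 members found in the cut list of replicate 2 but not of replicate 1 were rpl-9, rpl-10, rpl-19, rpl-32 and rpl-33, so part of the count rests on replicate 2. Among bound members with a summit in both lists, the ranks of rpl-32 differed most, 19795 in replicate 1 and 736 in replicate 2, with signals of 4.40 and 67.6. For rpl-33, encoding eL33, the ranks were 6217 and 1191. For rpl-28, encoding eL28, they were 1848 and 467, and for rpl-9, encoding uL6, 4026 and 1273. The list of replicate 1 held no summit within 500 bp of rpl-10, which ranked 1430 in replicate 2.

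In the relaxed lists, which hold peaks and background, nearly all members had some summit. The pooled list gave 45 members, beside 29.2% of coding genes, replicate 1 gave 42, beside 31.1%, and replicate 2 gave 47, beside 28%.

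The median summit lay 306 bp upstream of the 5' end (quartiles 246.5 and 367 bp), beside 175 bp for other bound genes (quartiles 87.5 and 284.5 bp). Between 200 and 400 bp upstream fell 25 of the 36 members (69.4%), beside 34.2% of the other bound genes. The rps- genes had a median of 300 bp (quartiles 252.25 and 367.25 bp), and the 13 bound mrpl- genes one of 163 bp. From the start codon, the medians were 315 bp for members and 207 bp for the others. The 5' ends of worm genes often mark trans-splice sites and not the start of transcription. For 42 of the 47 members the annotated 5' end lay within 30 bp of the start codon, beside 61.4% of coding genes. The acceptor TTTCAG was present in the 10 bases before the 5' end of 23 of 47 members (48.9%), beside 13.3% of coding genes, with 18 of 36 bound and 5 of 11 unbound members.

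Of the 36 members 35 had the summit upstream. The exception was rpl-19, encoding eL19, whose annotated 5' end lies 642 bp before its start codon. Its summit fell in its own intron, 325 bp inside the gene but 317 bp upstream of the start codon. In position relative to the start codon rpl-19 was therefore close to the median of the members. The farthest summits were 472 bp upstream at rpl-34, 458 bp at rpl-35 and 424 bp at rpl-36. The member just outside the 500 bp limit was rpl-41.1, whose nearest thresholded summit lay 564 bp upstream with a signal of 62.4.

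**Figure D2:**
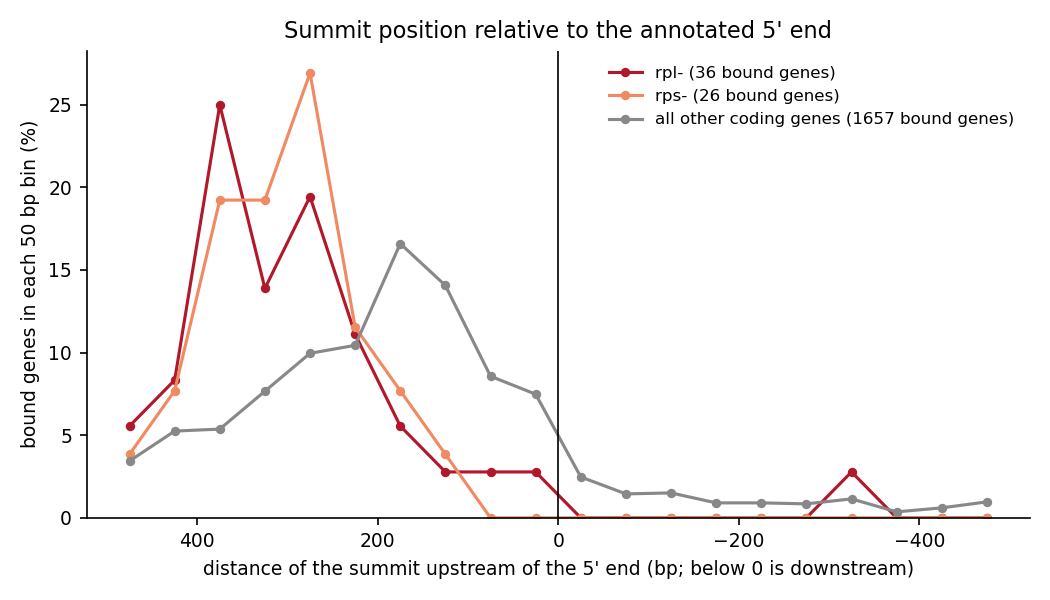
Share of bound genes (%) by distance of the strongest summit upstream of the annotated 5' end, in bins of 50 bp, for 36 rpl- genes, 26 rps- genes and the other bound coding genes. The rpl- and rps- curves are highest between 250 and 400 bp, and the curve of the other genes between 100 and 200 bp.

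Of the 36 summits 34 were intergenic with respect to coding genes. An annotated non-coding RNA gene covered 7 of the 36 (19.4%), beside 5.88% of the other bound genes and 19.2% of the 26 bound rps- genes. The 7 were at rpl-1, rpl-5, rpl-7, rpl-17, rpl-24.1, rpl-36.A and rpl-39. The summits of rpl-24.1 and rpl-39 are also those of rps-10 and rps-30, so they count in the rps- share as well. The part of these RNA genes in the signal was not tested.

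Many of the members' summits lay between a pair of divergent genes. The upstream neighbour, at any distance (11497 bp at rpl-35), was divergent for 23 bound and 8 unbound members. No share over all coding genes was counted beside these. Another coding gene had its 5' end within 500 bp of the same summit for 20 of the 36 members, so that a single summit made both genes bound. This share was 55.6%, beside 43.7% of the other bound genes and 61.5% of the 26 bound rps- genes. For all 20 members the other gene was the divergent neighbour. The median distance to the member's 5' end was 329.5 bp for these shared summits and 302 bp for the 16 others. At the shared summits the neighbour's 5' end lay at a median of 220 bp, and it was nearer than the member's for 12. These data do not say which gene of a pair a summit serves.

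For 12 members the neighbour's 5' end was the nearer one. The summit of rpl-10 lay 401 bp from rpl-10 but 2 bp from the 5' end of ints-11, the endonuclease of the Integrator complex. That of rpl-31 lay 29 bp from sac-2, that of rpl-17 151 bp from aps-3, an adaptor complex subunit, and that of rpl-4 154 bp from B0041.8. The summit of rpl-20 lay 156 bp from Y17G9B.5, that of rpl-33 161 bp from farl-11, and that of rpl-28 163 bp from mrpl-49, a mitochondrial ribosomal protein gene. For rpl-22 the neighbour was ify-1, the worm securin, at 167 bp. For rpl-34 it was ppm-1.H at 201 bp, for rpl-36 it was rps-14 at 239 bp, for rpl-36.A it was nuo-1, a complex I subunit gene, at 262 bp, and for rpl-21 it was C14B9.10 at 273 bp. When each summit was given only to its nearest coding 5' end, 24 members stayed bound, beside 6.71% of coding genes.

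The remaining 8 shared summits were nearer to the member. The rpl-12 summit, 24 bp from rpl-12, lay 369 bp from lin-54, which encodes the DNA-binding DREAM subunit. Besides that of rpl-36 and rps-14, the summits of rpl-24.1 and rps-10 (240 and 370 bp) and of rpl-39 and rps-30 (248 and 251 bp) lay between genes of the large and the small subunit. The rpl-9 summit lay 242 bp from rpl-9 and 277 bp from lpd-7, so at that site a ribosomal protein gene and an assembly gene share a weak summit.

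**Figure D3:**
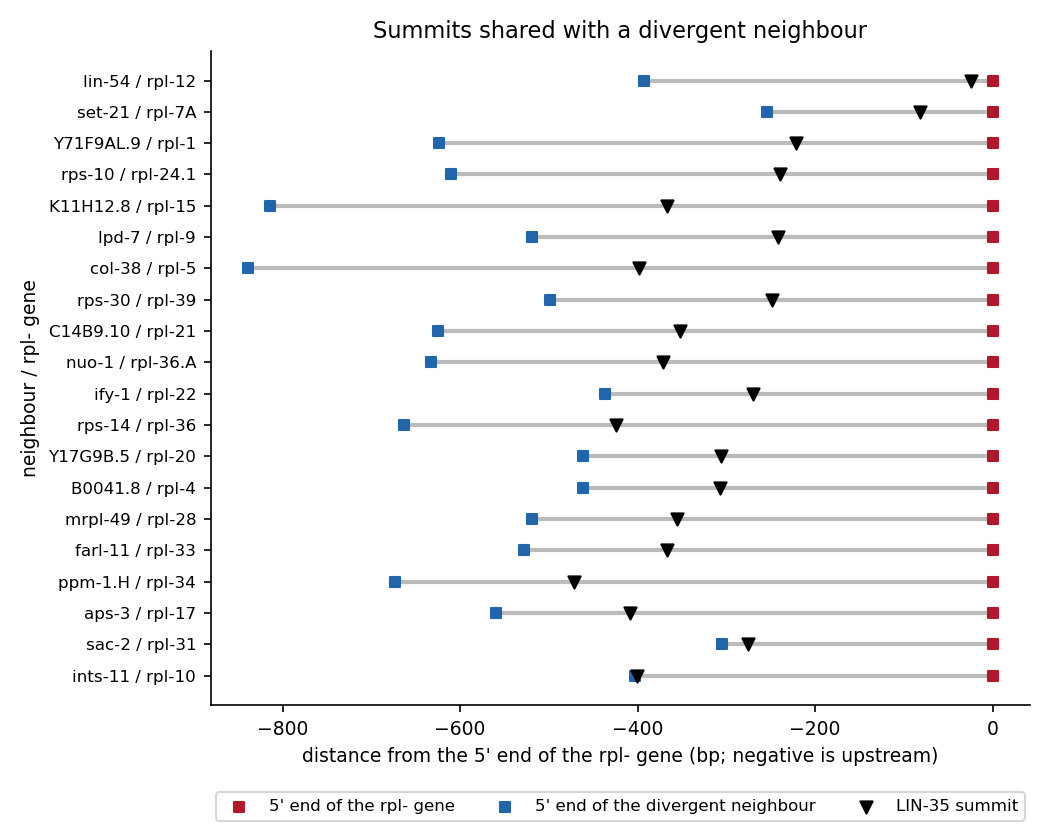
The 20 bound rpl- genes whose summit is shared with a divergent neighbour, aligned at the 5' end of the rpl- gene (0 bp); squares are 5' ends, triangles are summits and the x axis is in bp. The summit position moves from 24 bp of the rpl- gene at rpl-12 to 2 bp of the neighbour at ints-11.

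The 11 unbound members were rpl-2, rpl-11.1, rpl-16, rpl-25.1, rpl-26, rpl-27, rpl-30, rpl-37, rpl-41.1, rpl-42 and rpl-43. Closest to the threshold was rpl-26, encoding uL24. Its pooled signal was 38.5 at rank 3072, with the summit 271 bp upstream, where replicate 1 also had its summit, at rank 3609. In replicate 2 the strongest summit, at rank 25557, lay downstream of the 5' end, 494 bp from that of replicate 1. Then came rpl-41.1 with a pooled signal of 31.7 at rank 4107, and rpl-27, encoding eL27, with 26.8 at rank 5240. At rpl-27 the thresholded summit nearest to the 5' end lay 746 bp downstream, past the end of the gene, with a signal of 97.3. The nearest to rpl-43 had a signal of 199 but lay 767 bp upstream. The pooled signals of the others with a summit were 18.7 at rpl-43, 16.3 at rpl-30, encoding eL30, 16.1 at rpl-2, encoding uL2, 12.3 at rpl-16, encoding uL13, 6.72 at rpl-25.1 and 6.05 at rpl-11.1. Of these summits, those of rpl-43, rpl-16 and rpl-25.1 lay downstream of the 5' end and the rest upstream. No summit of the pooled list lay within 500 bp of rpl-37 or rpl-42.

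Gene structure was read beside the call, with too few members of each kind for the counts to set them apart from other genes. The members with a single exon were rpl-37 and rpl-43, and neither was bound, beside 4.04% of 693 single-exon coding genes bound. In 3 members the next coding gene upstream ended on the same strand within 200 bp, and none of the 3 was bound, beside 5.03% of 1907 such coding genes. These were rpl-16, 105 bp after lias-1, rpl-25.1, 97 bp after glit-1, and rpl-27, 119 bp after C53H9.2. A summit did lie at the 5' end of the upstream gene in the first of these cases, with lias-1 bound at a signal of 94.4, and in the second, with glit-1 bound at 77.1, but C53H9.2 was not bound. For comparison, the smallest upstream gap of a bound tandem member was 364 bp.

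Members that share a number were set side by side in pairs. The gene rpl-11.2 was bound with a signal of 175 and ranks of 281 and 405 in replicates 1 and 2, while rpl-11.1 was not. The ranks of rpl-11.1 were 10431 and 16372, both at summits downstream of its 5' end. The gene rpl-25.2 was bound with a signal of 112 and ranks of 910 and 674. Its partner rpl-25.1 had a rank of 14320 in replicate 2, downstream of its 5' end, and no summit within 500 bp in replicate 1. The gene rpl-41.2 was bound with ranks of 329 and 156, while rpl-41.1, which ends 699 bp upstream of it on the same strand, had ranks of 20765 and 3655. In each of these 3 pairs of genes for the same protein only the member with the suffix 2 was bound, and its ranks were better than its partner's in both replicates wherever both had a summit. The opposite order held for eL37: rpl-37, which RefSeq names rpl-37.2, was not bound. W01D2.1, named rpl-37.1 there and no member by its Ensembl symbol, was bound. The ranks of W01D2.1 in replicates 1 and 2 were 8239 and 613, so in replicate 1 it fell outside the 2712 strongest peaks. Those of rpl-37 were 19229 and 25744. The pair rpl-24.1 and rpl-24.2 was bound at both genes with signals of 210 and 481, but its products are a ribosomal protein and an assembly factor. Also bound at both genes were rpl-7 and rpl-7A, with 53.3 and 403, and rpl-36 and rpl-36.A, with 158 and 90.0. Their products differ as well, uL30 and eL8 in the former pair and eL36 and eL42 in the latter.

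Motifs were sought on both strands of windows of 201 bp centred on the summits. An E2F site (TTCCCGC or TTCGCGC or TTGCCGC or TTGGCGC) was present in 4 of 36 member windows (95% Wilson interval 4.41 to 25.3%), namely those of rpl-5, rpl-12, rpl-22 and rpl-34. It was present in 25.7% of 1640 windows of other bound genes with other summits and in 6.92% of windows of all coding genes centred 306 bp upstream of the 5' end, the members' median. A CHR element (TTCGAA or TTTGAA) was present in 17 member windows (47.2%, interval 32.0 to 63.0%), beside 56.5% of the other bound windows and 56.4% of all coding genes. In rpl-12, rpl-5 and rpl-22 the same window held an E2F site and a CHR element. The interval of the members' CHR share includes both other shares. Centred 306 bp upstream of the 5' end, 25 of all 47 members had a CHR element (53.2%). Among the 11 unbound members 9 had it there (81.8%, interval 52.3 to 94.9%), and this interval includes the 56.4% of all coding genes.

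The remaining listed motifs were no more frequent in member windows than in those of other bound genes. The GAGA repeat GAGAG was present in 33.3% of member windows, beside 45.2% of other bound windows and 24.2% of all coding genes. The shortened CRE site TGACG, labelled CRE in the motif plot, was present in 16.7%, beside 31.9% and 18.8%. The TATA box TATAAA was present in 8.33%, beside 15.7% and 24.2%, and the E-box CACGTG in 2.78%, beside 4.51% and 3.19%. The 23 rps- windows with summits not shared with a member gave 3 with an E2F site and 10 with a CHR element (43.5%).

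Base composition changed at the members' summits. Of the 25 bases centred on the summit 54.3% were G or C, beside 29.2% in those 100 bp before it and 31.1% in those 100 bp after it. The windows of other bound genes had 50.5% at the summit, and the rps- windows 57.2%.

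The 6 words in capitals above were picked after the sequences were seen, as the 7-letter words with the largest excess of member windows over windows of other bound genes, so their member shares are a description with no test. CGAGTGT was in 13 of 36 member windows (36.1%), beside 2.44% of the other bound windows. GGTCTCG was in 14 (38.9%), beside 9.45%, and AAACGAG in 13 (36.1%), beside 9.33%. CCTAAAA was in 12 (33.3%), beside 4.02%, TACCGTA in 12 (33.3%), beside 6.71%, and TACTCAG in 8 (22.2%), beside 1.04%. In windows of all coding genes 306 bp upstream their shares ran from 1.05% for CGAGTGT to 5.19% for CCTAAAA. The word GGTCTCG lay nearest to the summits, at a median of 7 bp, and CCTAAAA farthest, at 63 bp. The joined run AAACGAGTGT was in 7 member windows (19.4%), beside 1.22% of other bound windows and 0.110% of all coding genes.

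At least 1 of the words was in 32 of 36 member windows (88.9%), at least 2 in 23 (63.9%) and at least 3 in 13 (36.1%). For other bound windows the shares were 27.1%, 4.33% and 1.22%. The 23 rps- windows, which had no part in the choice, gave 19 with at least 1 word (82.6%), 10 with at least 2 (43.5%) and 2 with at least 3 (8.70%). Among the words, CCTAAAA was in 9 of these rps- windows, GGTCTCG in 7, AAACGAG as well as TACCGTA and TACTCAG in 5 each, and CGAGTGT in 2. The member windows with 4 words were those of rpl-6, rpl-11.2, rpl-19 and rpl-21, and those with none were rpl-12, rpl-25.2, rpl-35 and rpl-36. In windows centred 306 bp upstream in place of the summit, 31 of all 47 members had a word (66.0%) and 3 of the 11 unbound members (27.3%), beside 15.4% of all coding genes. The words were picked on bound members' windows around that place, which raises the share over all 47, so bound and unbound members cannot be compared by it. The 18 stronger members had a mean of 1.83 words per window and the 18 weaker members one of 2.17.

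**Figure D4:**
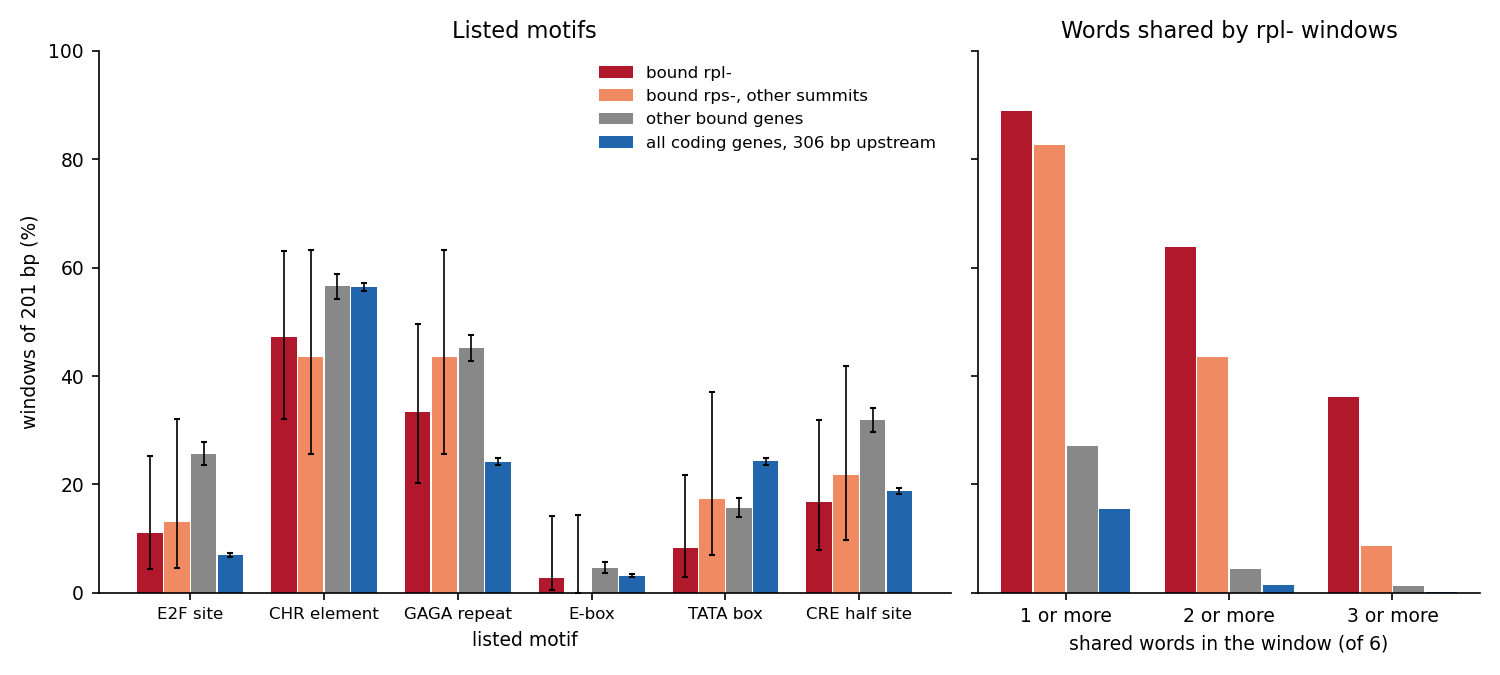
Share of windows of 201 bp (%) with each listed motif (left, bars with 95% Wilson intervals) and with 1 or more, 2 or more or 3 or more of the 6 shared words (right), for bound rpl- genes, bound rps- genes with other summits, other bound genes, and all coding genes 306 bp upstream of the 5' end. The words were chosen on the rpl- windows, so the red bars on the right are a description; the rps- bars, at 82.6%, 43.5% and 8.70%, were not used in the choice.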

How the data were processed

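LIN-35 ChIP-seq peaks of 2 biological replicates in 1 group were analysed. For ce11 the authors deposited 1 relaxed list per replicate (30000 and 26192 entries, peaks with background), another from the pooled replicates (30000) and 1 of 2712 peaks thresholded by irreproducible discovery rate, per the file headers and text indexes. The authors deposited a signal for each peak, whose scale is not stated and which was used only within a list to rank and describe peaks. The −log10 q-value that the authors deposited is 3.78 for every thresholded peak and was not used. No label or header used here names the aligner or peak caller. The control, the read depths and the lists in ce10 were not used here. Depth is therefore unknown, and the Wilson intervals cover counting of genes or windows only.

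Gene positions came from Ensembl release 115 (WBcel235) and product names and sequence from RefSeq for the same assembly. No peak extended past a chromosome end. Each gene was given the strongest summit within 500 bp of its outermost annotated 5' end, so that neighbours could share a summit. Ranks run from the strongest peak of each list, and replicates were compared over the 2712 strongest peaks of each. Motifs and words were searched on both strands within 100 bp of summits. The words were found greedily by excess over other bound windows, leaving out any that shared 5 letters with one already taken. Members named with values were the 12 of highest and 4 of lowest signal, all unbound members, members sharing a number, the 4 bound members with the most different replicate ranks, the 3 nearest and 3 farthest summits, those beside the 500 bp limit, and neighbours nearer to a summit; members named for the place of their product, the intron summit, non-coding RNA genes, words and listed motifs, and rpl-13, rpl-14, rpl-18 and rpl-38, were chosen after their values were seen. The members, lists and motifs were chosen with earlier results of these data known. Python 3.11.15 with pandas 2.3.3, NumPy 2.4.6 and SciPy 1.17.1 was used. Assignment was checked on simulated data: of 200 summits planted at known offsets among 19973 genes, all 116 within the distance were found at their offset. Alternatives were other distances, peak lists, single replicates, the start codon, the nearest 5' end only and narrower windows.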

Additional observations from a re-analysis of the deposited data

How the results depend on the processing

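No paired analysis was possible because there is 1 group of replicates and no comparison between groups. The 36 bound members became 5 at 200 bp, 41 at 1000 bp, 24 when each summit went only to its nearest coding 5' end, 30 in the 1356 strongest peaks and 31 in peaks found among the strongest of both replicates. Leaving out a replicate gave 31 to 36 bound members, and a median distance of 290 to 302.5 bp. The median distance was 298 to 315 bp under the other settings planned, and 275.5 bp over the 24 members whose summit was not nearer to another gene, a setting added after seeing the data. The median signal was 117 with the nearest summit, 142 with the nearest 5' end only and 403 over the 5 members within 200 bp. In windows of 50 bp on each side, CHR elements were in 25% of member windows, GAGA repeats in 19.4% and TATA boxes in 2.78%; these windows are shorter by construction. Among the words, chosen after seeing the data, CCTAAAA was then in 4 of 36 windows and AAACGAG in 8. Of 59 values under an alternative, 52 lay within 1.5 times of the value reported, or for shares of windows within its interval, and 7 did not. For the count of bound members the upper limit lay above 47, so no larger count could fall outside. The 24 members under the nearest 5' end only stood exactly at the lower limit. Taking members by RefSeq product gave 37 bound of 47. Read depth was not used here, so which weak summits a deeper library would add is unknown.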
